A study of Nicotiana benthamiana with 6 samples.

Results

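Plant defensins were followed in leaves of *Nicotiana benthamiana*, a wild relative of tobacco used widely for transient gene expression. The set held 18 of the 167935 unigenes of the deposited table, a unigene being a transcript sequence of the de novo assembly. It consisted of c84264_g2_i1 and the other unigenes whose best protein match was from *Nicotiana* or *Solanum* and which carried a Gamma-thionin domain or a UniProt match named defensin. Of the 18, 11 carried the Gamma-thionin domain and 7 were included by the UniProt name alone. The unigene c84264_g2_i1 was chosen by its measured rise, one of the largest in these same libraries, so its values are given as a description, with no test, whereas the others were taken by annotation.

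Defensins are small, secreted, cysteine-rich peptides in which an α-helix is packed against a β-sheet by disulfide bridges, a fold also called γ-thionin. Many of them inhibit the growth of fungi by acting on membrane lipids, and others block enzymes or serve as signals between cells. In *Arabidopsis*, defensin genes of the PDF1 group are standard leaf markers of the jasmonate and ethylene branches of defense, while in the tobacco and potato family several members are best known from flowers, fruits, tubers and seeds.

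The study asked how leaves respond to *MaWRKY45*, a banana gene for a WRKY transcription factor. In the overexpression group, wild-type plants were infiltrated with *Agrobacterium tumefaciens* LBA4404 carrying pCAMBIA2200::*MaWRKY45*, in which the CaMV 35S promoter drives the transgene, and in the mock group with the same strain carrying the empty pCAMBIA2200. All plants were 5 weeks old, the bacterial suspensions had an OD600 of 1.0 and leaves were collected 3 days after infiltration, so that both groups had received bacteria and vector. Each group had 3 libraries, and each library pooled RNA of 3 plants, which means that differences between single plants and between transformed and untransformed leaf cells were not recorded. In such bulk leaf RNA, fewer cells of a type and less RNA per cell cannot be told apart.

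The libraries held between 12031310 and 14285138 counts. Mock 2 stood somewhat apart, with a correlation of 0.960 to 0.962 with the other mock libraries, which correlated at 0.979 with each other. The most abundant unigene with a banana WRKY match, c147189_g1_i1, is joined to a CaMV sequence that the empty vector shares. It had 3133, 4527 and 3615 counts in overexpression leaves against 1617, 781 and 1455 in mock leaves. Other unigenes with such a match had few counts. In overexpression against mock leaves, c161890_g1_i1 had 8, 0 and 2 against 0, 0 and 0, and c149239_g1_i1 had 2, 2 and 0 against 0, 1 and 0. Leaf markers were abundant in both groups, since 35 chlorophyll a-b binding unigenes summed to 2900 to 4501 CPM in overexpression leaves and to 4795 to 16530 CPM in mock leaves. Here CPM are counts relative to the library size scaled with TMM factors. This sum was lower in each overexpression library than in each mock library. The 2 unigenes of the ribulose bisphosphate carboxylase small subunit summed to 2949 to 5821 CPM in overexpression leaves against 4335 to 12512 CPM in mock leaves. The part of leaf markers in the results on defensins was not tested. Unigenes matched to yeast summed to 28.0 to 94.5 CPM in overexpression leaves and to 726 to 1051 CPM in mock leaves, and those matched to *E. coli* to 199 to 286 CPM against 18.8 to 33.6 CPM. The part of these sequences in the results on defensins was not tested. Seed storage markers, 25 unigenes, were low and alike at 52.8 to 60.9 CPM in overexpression leaves and 52.6 to 62.0 CPM in mock leaves, and 3 flower MADS-box markers were at 2.27 to 4.43 CPM against 7.89 to 9.34 CPM.

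Defensin transcripts were among the readily detected messages of these leaves, and most of the signal came from few unigenes. The set summed to 601, 603 and 438 CPM in the 3 overexpression libraries and to 947, 638 and 736 CPM in the mock libraries. Thus the overexpression libraries lay below all mock libraries, with a mean of 547 ± 94.8 CPM in overexpression leaves and 774 ± 158 CPM in mock leaves (SD, n = 3 each). As a share of all counts without TMM scaling, the separation was lost, since the set took 0.0602%, 0.0612% and 0.0466% in overexpression leaves against 0.0912%, 0.0600% and 0.0681% in mock leaves. The unigenes c160225_g1_i1, c78801_g2_i1, c147977_g1_i1 and c83741_g1_i2 supplied 79.7% of the summed CPM in overexpression leaves and 82.5% in mock leaves.

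Levels of different unigenes were compared on the deposited FPKM, which takes the length of each unigene into account, the set spanning 225 to 827 bases. In overexpression leaves c78801_g2_i1 led with 419 ± 171 FPKM, before c160225_g1_i1 with 290 ± 21.0, c83741_g1_i2 with 159 ± 29.4, c147977_g1_i1 with 154 ± 54.3 and c102031_g1_i1 with 142 ± 39.2 FPKM. In mock leaves c160225_g1_i1 led with 513 ± 321 FPKM, before c147977_g1_i1 with 382 ± 139, c78801_g2_i1 with 318 ± 109 and c83741_g1_i2 with 211 ± 24.7 FPKM (SD, n = 3 in each group). In overexpression leaves the libraries of c78801_g2_i1 and c160225_g1_i1 overlapped, and c160225_g1_i1 was higher in overexpression 3. The single mock libraries of c160225_g1_i1, c147977_g1_i1 and c78801_g2_i1 overlapped, so their order in mock leaves lay within the spread of the libraries, and the same held for c83741_g1_i2, c147977_g1_i1 and c102031_g1_i1 in overexpression leaves. The chosen unigene c84264_g2_i1 had 11.4 ± 9.91 FPKM in overexpression leaves, well below these abundant unigenes, and was listed at 0 in mock leaves.

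**Figure D1:**
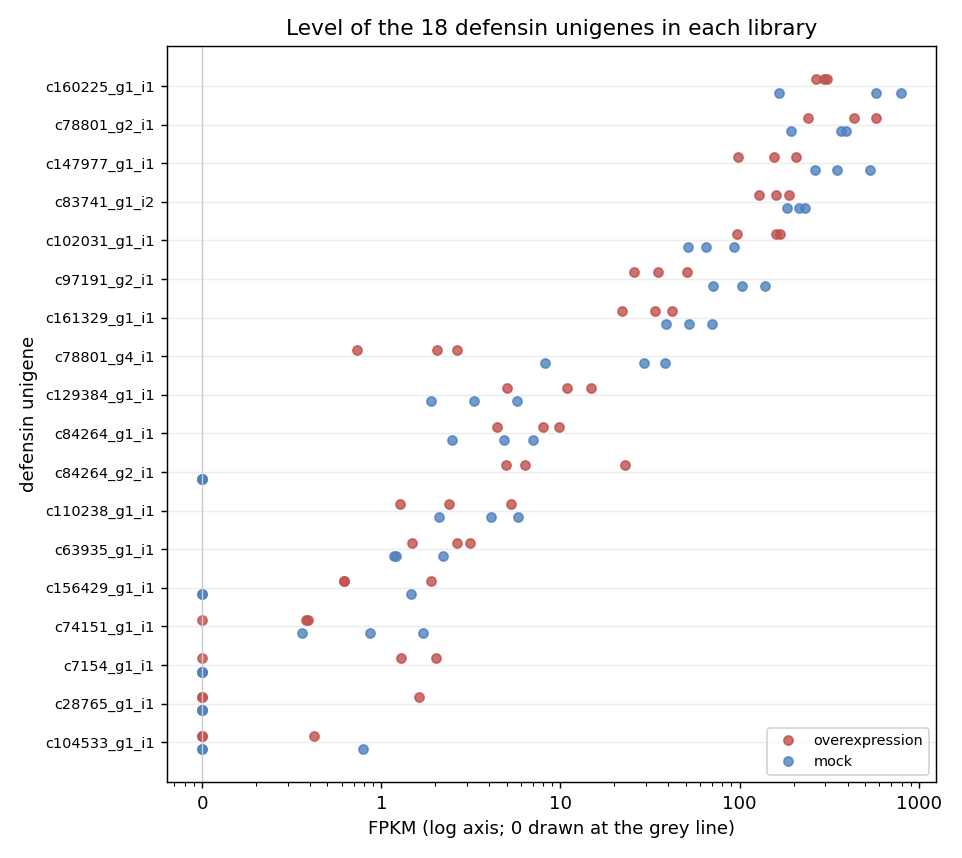
FPKM of the 18 defensin unigenes on a log axis, one point per library, with overexpression libraries in red above mock libraries in blue, and values of 0 drawn at the grey line. The unigenes are ordered by mean FPKM and run from c160225_g1_i1, at 290 FPKM in overexpression and 513 FPKM in mock leaves, to unigenes with single counts; c84264_g2_i1 is the one with all 3 mock points at 0 and all 3 overexpression points well above it.

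Of the 18 unigenes, 13 passed the filter on low counts, and c84264_g2_i1 did so only through the overexpression libraries. Among the other 12, edgeR called 3 lower and 0 higher in overexpression leaves, at a Benjamini-Hochberg adjusted p under 0.05 with a change of 2-fold or more. Because c84264_g2_i1 was left out after being chosen for its rise, this split by direction describes the other 12 only. Over all 37201 tested unigenes, 4.59% were called, 2.67% lower and 1.92% higher, and among those with a *Nicotiana* or *Solanum* match 5.46% were called. The 37201 include 125 unigenes matched to yeast, of which 111 were called lower, and 7 matched to *E. coli*, of which 7 were called higher. DESeq2 called 2562 unigenes, against 1706 in edgeR. That is 1.6% of the 160316 unigenes with an unadjusted p-value, a larger base that is not comparable with that of edgeR. The edgeR filter was not applied there, and by default DESeq2 itself withholds adjusted p-values from unigenes of low mean count. With c84264_g2_i1 left out, DESeq2 also called 3 defensins lower and 0 higher, as did limma-voom. In edgeR, 2 of the 12 were higher at an unadjusted p under 0.05. The median log2 fold change of the 12 was -0.52, with 5 above and 7 below 0, against -0.01 over all tested unigenes. In 4 of the 12 the libraries of the groups did not overlap, each time with overexpression lower, a pattern found in 11.5% of all tested unigenes (22.9% for either direction).

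**Figure D2:**
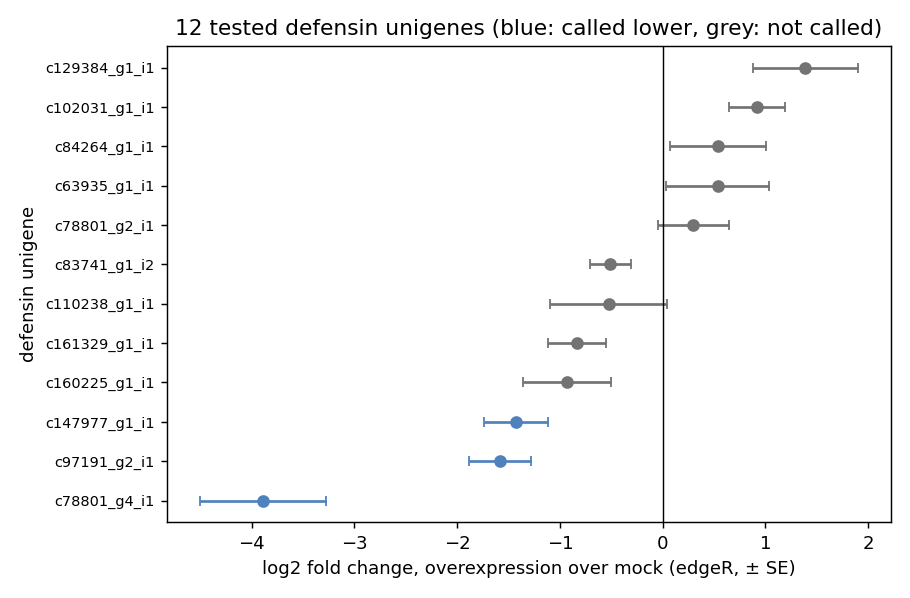
Log2 fold change of overexpression over mock for the 12 tested defensin unigenes other than c84264_g2_i1, with the standard error from edgeR as bars. Blue marks unigenes called lower and grey those not called. The called unigenes are c147977_g1_i1 at -1.43, c97191_g2_i1 at -1.58 and c78801_g4_i1 at -3.89, and no unigene right of 0 is called.

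The chosen unigene, c84264_g2_i1, is 489 bases long, carries the Gamma-thionin domain and matches defensin-like protein 19 of *N. attenuata* and *Arabidopsis*. It had 24, 90 and 19 counts in the 3 overexpression libraries and 0 counts in each of the mock libraries. The groups did not overlap, and overexpression 2 held most of the counts. Its mean was 3.30 ± 2.86 CPM in overexpression leaves (SD, n = 3) and 1.65 CPM without overexpression 2, so the mean rested largely on that library, whereas the lack of counts in mock leaves rested on all 3 mock libraries. Set against a floor of 3 counts over the mock group, it was at least 42.6-fold higher in overexpression leaves, and at least 20.9-fold higher without overexpression 2, a bound that covers counting error only.

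The unigene c84264_g1_i1, of 507 bases, belongs to the same assembly component as c84264_g2_i1, and the *N. attenuata* proteins they match carry the locus tags A4A49_11400 and A4A49_11402, for c84264_g1_i1 and c84264_g2_i1 in this order. It had 32, 41 and 18 counts in overexpression leaves against 22, 11 and 26 in mock leaves. All 6 libraries contained it and the groups overlapped. Its partner c84264_g2_i1 was chosen for its rise, so the contrast between them was partly set by that choice. The means of c84264_g1_i1 were 2.29 ± 0.86 CPM in overexpression leaves and 1.59 ± 0.76 CPM in mock leaves (SD, n = 3 each). Its log2 fold change was 0.54 (SE 0.46, adjusted p = 0.605 in edgeR). Since contigs of one component can share sequence, the division of reads between them is uncertain.

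Both unigenes were among 6 members that matched a run of tomato loci in the deposited EggNOG annotation. These loci are numbered Solyc07g009040 to Solyc07g009310, on tomato chromosome 7. The sequences of the unigenes and their positions in *N. benthamiana* were not compared. Together the 6 summed to 339, 394 and 233 CPM in overexpression leaves against 606, 215 and 467 CPM in mock leaves, so that the groups overlapped through mock 2.

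The unigene c97191_g2_i1 shares its tomato match, Solyc07g009260, with c84264_g2_i1, carries the Gamma-thionin domain and is also closest to *Arabidopsis* defensin-like protein 19. It had 202, 307 and 150 counts in overexpression leaves against 900, 660 and 376 in mock leaves, and every overexpression library lay below every mock library. It fell to 16.5 ± 5.7 CPM in overexpression leaves, against 49.5 ± 16.0 CPM in mock leaves (SD, n = 3 each), about 3.00-fold lower, a log2 fold change of -1.58 (SE 0.30, adjusted p = 0.0160 in edgeR). The call was lost without mock 1 (-1.34, adjusted p = 0.0762) and without overexpression 1 (-1.56, adjusted p = 0.0674), and with glmTreat, which tests against a 2-fold change (adjusted p = 0.356).

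The largest decrease of the set was that of c78801_g4_i1, which matches defensin-like protein 3 of radish, an antifungal defensin, and tomato Solyc07g009040. No Gamma-thionin domain was annotated for it, so it was included by the UniProt name. It had 11, 15 and 4 counts in overexpression leaves against 234, 49 and 147 in mock leaves. Even mock 2, the lowest of the mock libraries, was above each overexpression library. It fell to 0.755 ± 0.414 CPM in overexpression leaves, against 11.3 ± 6.9 CPM in mock leaves (SD, n = 3 each), a log2 fold change of -3.89 (SE 0.61, adjusted p = 0.00702 in edgeR). It was called in each of the alternatives, with adjusted p-values up to 0.0443, and the log2 fold change stayed between -4.32 and -3.47. This unigene is among the decreases the study listed from the same libraries, so its direction is not independent evidence.

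In the same assembly component, c78801_g2_i1 matches a defensin-like protein of sacred lotus and tomato Solyc07g009100, and did not follow c78801_g4_i1. No Gamma-thionin domain was annotated for c78801_g2_i1 either. It had 2511, 3508 and 1398 counts in overexpression leaves against 2565, 1234 and 1956 in mock leaves. The groups overlapped, although overexpression 1 and 2 lay above each mock library on the CPM scale, at 186 ± 78 CPM in overexpression leaves and 152 ± 52 CPM in mock leaves (SD, n = 3 each). The log2 fold change was 0.30 (SE 0.35, adjusted p = 0.721 in edgeR).

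The last of the run, c160225_g1_i1, carries the Gamma-thionin domain and matches defensin-like protein 1 of *N. sylvestris* and tomato Solyc07g009290. It had 1502, 1415 and 1570 counts in overexpression leaves against 4581, 931 and 2693 in mock leaves. The overexpression libraries were nearly equal, with a coefficient of variation of 7.19%, whereas the mock libraries varied by 62.5% and mock 1 was 4.82-fold above mock 2. Means were 113 ± 8.1 CPM in overexpression leaves and 215 ± 135 CPM in mock leaves (SD, n = 3 each), and the log2 fold change of -0.93 (SE 0.43) did not pass the test (adjusted p = 0.279 in edgeR). Without mock 2 it was called lower (-1.36, adjusted p = 0.00218).

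**Figure D3:**
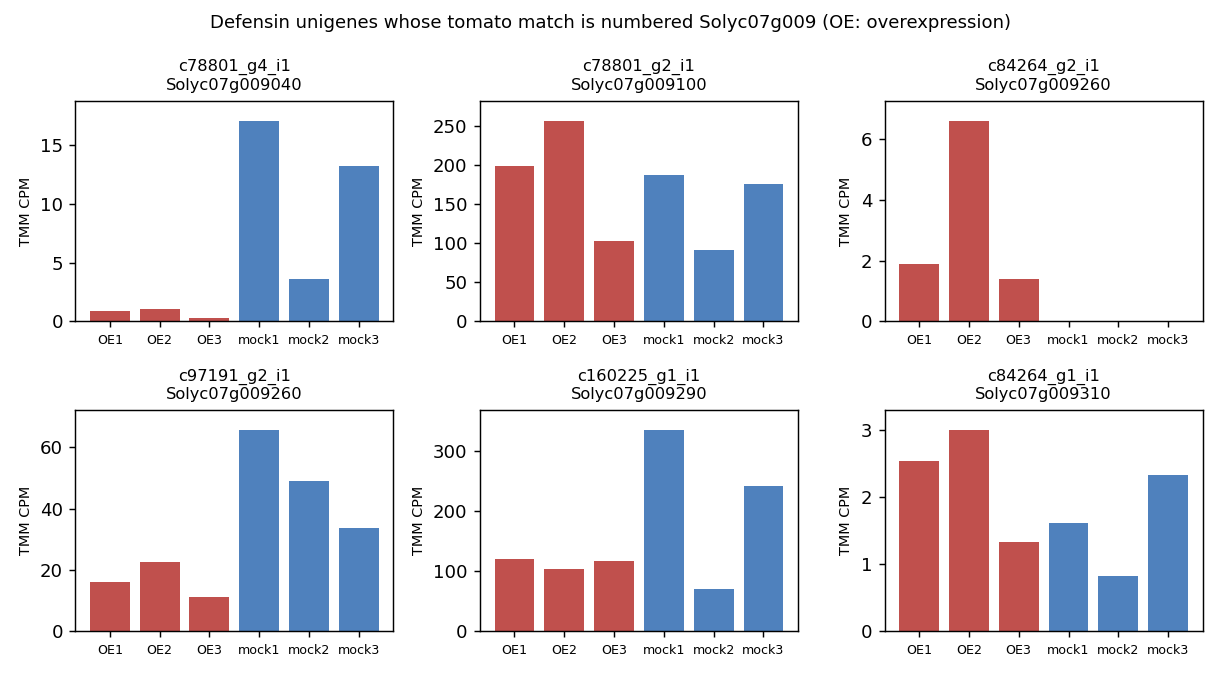
TMM CPM per library of the 6 defensin unigenes with a tomato match numbered Solyc07g009, in overexpression libraries (OE1 to OE3, red) and mock libraries (blue), each panel on its own linear axis from 0. The panel of c84264_g2_i1 has no mock bars, c78801_g4_i1 has overexpression bars averaging 0.755 CPM against 17.1 CPM in mock 1, and c160225_g1_i1 shows equal overexpression bars beside unequal mock bars.

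Mock 2 was low in several of these unigenes. It was the lowest mock library in 6 of the 12 tested defensin unigenes (50%), against 35.5% of all tested unigenes. It lay at least 2-fold below both other mock libraries in 2 of the 12, c160225_g1_i1 and c78801_g4_i1, or 16.7% against 4.55% of all tested unigenes. Its yeast sum of 1003 CPM was within the range of the mock libraries, while its chlorophyll a-b binding sum of 16530 CPM was the highest of the 6 libraries. The part of leaf state in these values was not tested.

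The defensins related to potato P322, a tuber defensin first described as a probable protease inhibitor, were both below mock leaves on average, and 1 of them was called. The unigene c147977_g1_i1, annotated as defensin-like protein 2 of *N. benthamiana*, had 804, 532 and 1079 counts in overexpression leaves against 2035, 3069 and 1259 in mock leaves. The groups did not overlap, and here mock 2 was the highest library, unlike in c160225_g1_i1. It fell to 60.7 ± 20.5 CPM in overexpression leaves, against 163 ± 59 CPM in mock leaves (SD, n = 3 each), a log2 fold change of -1.43 (SE 0.31, adjusted p = 0.0276 in edgeR). The call was lost without mock 1 (adjusted p = 0.0858), overexpression 1 (adjusted p = 0.0898) or overexpression 2 (adjusted p = 0.0965), with glmTreat (adjusted p = 0.678) and with the replicate number as a block (adjusted p = 0.0633).

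Its relative c161329_g1_i1, defensin-like protein 1.2 of *N. benthamiana* by annotation, had 339, 187 and 274 counts in overexpression leaves against 476, 631 and 293 in mock leaves. As in c147977_g1_i1, mock 2 was highest and overexpression 2 lowest, but on the CPM scale the groups overlapped at their edges. Means were 20.3 ± 6.6 CPM in overexpression leaves and 36.02 ± 10.4 CPM in mock leaves (SD, n = 3 each), with a log2 fold change of -0.83 (SE 0.28, adjusted p = 0.130 in edgeR).

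Of the 3 unigenes that match J1-2, a defensin of bell pepper fruit, 0 were called by edgeR, DESeq2 or limma-voom, and 1 had an unadjusted p under 0.05 in edgeR. The abundant one, c83741_g1_i2, had 1163, 1046 and 809 counts in overexpression leaves against 1513, 1608 and 1062 in mock leaves. On the CPM scale every overexpression library lay below every mock library, at 76.1 ± 16.2 CPM in overexpression leaves and 109 ± 12.3 CPM in mock leaves (SD, n = 3 each). Relative to library size alone, overexpression 1 lay above mock 3. The log2 fold change was small, -0.51 (SE 0.20), with an adjusted p of 0.191 in edgeR. The remaining pair were near the limit of detection. The unigene c63935_g1_i1 had 14, 7 and 12 counts in overexpression leaves against 6, 11 and 5 in mock leaves, and c110238_g1_i1 had 9, 5 and 20 against 9, 24 and 14, with overlapping groups in both and log2 fold changes of 0.53 (SE 0.50) and -0.53 (SE 0.57).

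Among the defensins known from floral organs, c102031_g1_i1, which matches a defensin of the petunia pistil, was abundant in leaves. It had 914, 1014 and 560 counts in overexpression leaves against 600, 330 and 347 in mock leaves. Only overexpression 3 and mock 1 overlapped, at 41.3 and 43.8 CPM. Means were 62.7 ± 18.5 CPM in overexpression leaves and 33.2 ± 9.8 CPM in mock leaves (SD, n = 3 each), and the log2 fold change of 0.92 (SE 0.27) did not pass the threshold (adjusted p = 0.0901 in edgeR). Without overexpression 3 it was called higher (1.15, adjusted p = 0.0215).

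The unigene c129384_g1_i1 matches *Arabidopsis* defensin-like protein 181, from the large group of short cysteine-rich peptides without an assigned role. It had 47, 67 and 22 counts in overexpression leaves against 28, 9 and 13 in mock leaves, with overexpression 3 below mock 1 on the CPM scale. Means were 3.42 ± 1.66 CPM in overexpression leaves and 1.29 ± 0.70 CPM in mock leaves (SD, n = 3 each), with a log2 fold change of 1.39 (SE 0.51, adjusted p = 0.163 in edgeR). It was called higher without overexpression 3 (1.73, adjusted p = 0.0465) and when no filter on low counts was applied (1.39, adjusted p = 0.0300).

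**Figure D4:**
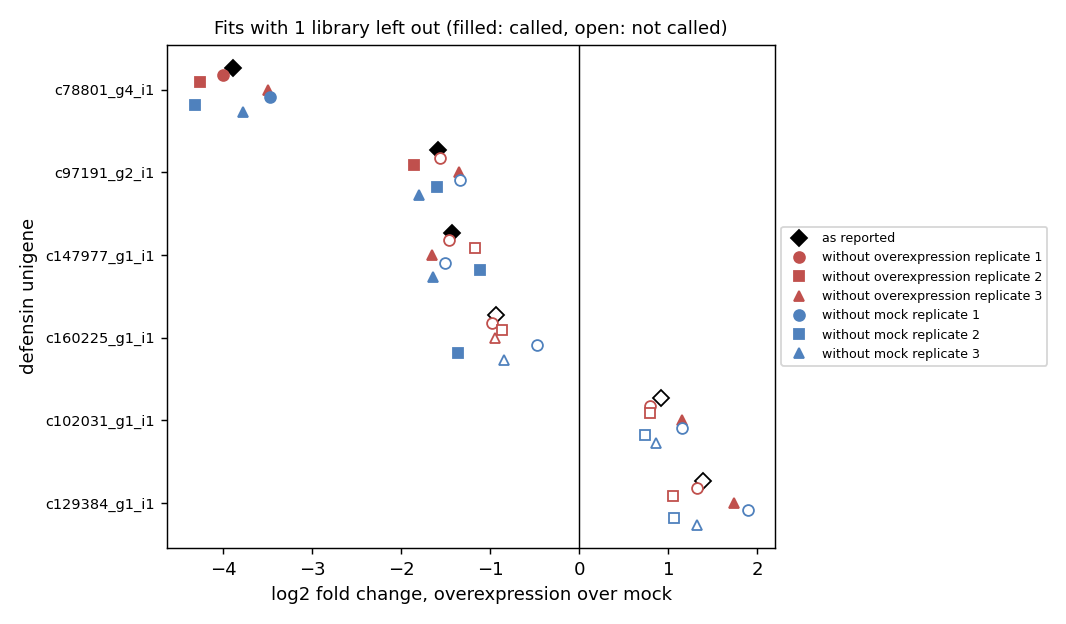
Log2 fold change of overexpression over mock for 6 defensin unigenes, with all libraries (black diamonds) and with 1 library left out at a time (red, an overexpression library; blue, a mock library); filled symbols are called and open ones are not. The call of c78801_g4_i1 holds in each fit, those of c97191_g2_i1 and c147977_g1_i1 depend on mock 1 and on overexpression libraries, and c102031_g1_i1, c129384_g1_i1 and c160225_g1_i1 are called in 1 fit each.

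The 5 unigenes that did not pass the filter were nearly silent in leaves. The unigene c7154_g1_i1, close to *Arabidopsis* defensin-like protein 305, had 6, 4 and 0 counts in overexpression leaves against 0 counts in each mock library, at least 3.20-fold higher against the floor of 3 counts over the mock group. Overexpression 3 shared the value of 0 with the mock libraries, and the bound was 1.87-fold without overexpression 1 and 4.85-fold without overexpression 3. The unigene c74151_g1_i1, which matches the flower-specific γ-thionin FST of tobacco, had 1, 1 and 0 counts in overexpression leaves against 5, 1 and 2 in mock leaves, a ratio of 0.240 with a 95% counting interval of 0.0248 to 1.20. The other 3 had at most 7 counts over the 6 libraries, too few for a difference to be detectable at this depth.

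The pattern of c84264_g2_i1 across the 6 libraries was most like that of unigenes outside the defensins, by Pearson's r of log2(CPM + 1) over 22724 unigenes with a mean of at least 1 CPM and a *Nicotiana* or *Solanum* match. The closest were an uncharacterized protein, c45880_g1_i1 (r = 0.997), the OFP3-like transcription repressor c79574_g1_i1 (0.993), the RING1a-like ubiquitin ligase c100068_g4_i6 (0.993), glucose-6-phosphate dehydrogenase 4, c96095_g4_i3 (0.991), and the CSC1-like c100064_g2_i1 (0.990). The coefficient takes no account of the size of a change, and all 5 had counts in each mock library, unlike c84264_g2_i1. The unigene c45880_g1_i1 had 154, 199 and 154 counts in overexpression leaves against 133, 130 and 110 in mock leaves. The difference was larger in c100064_g2_i1, with 15, 52 and 15 against 4, 5 and 3. With 6 libraries in 2 groups, and overexpression 2 highest in each of these unigenes, such values describe these libraries only. Of the defensins, c129384_g1_i1 came nearest (r = 0.855), followed by c102031_g1_i1 (0.833), while c147977_g1_i1 ran opposite (-0.928).

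Other families of small defense proteins showed calls in both directions. Among 105 tested unigenes of secreted peptide and pathogenesis-related (PR) families, 12 were called higher and 12 lower in overexpression leaves, which is 22.9% of them against 4.59% of all tested unigenes (1.92% higher and 2.67% lower), with a median log2 fold change of 0.06 against -0.01. The higher calls numbered 5 without mock 1, 6 without mock 3, overexpression 1 or overexpression 2, 19 without mock 2 and 21 without overexpression 3. The lower calls numbered between 9 and 18 with a library left out, and 21 in DESeq2. Unigenes with the Thionin domain proper were not among those tested.

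Snakins, cysteine-rich peptides of the GASA family, had 3 of 10 tested unigenes called higher and 1 lower, or 40% against 4.59% of all tested unigenes. The snakin-1-like c80401_g1_i2 had 97, 139 and 115 counts in overexpression leaves against 0, 1 and 0 in mock leaves. By contrast, the RSI-1-like c83661_g1_i1 had a log2 fold change of -2.59 (SE 0.27, adjusted p = 0.00160 in edgeR).

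Among lipid-transfer proteins, which like defensins are small, secreted and rich in disulfide bridges, 2 of 36 were called higher and 6 lower, or 22.2% against 4.59% of all tested unigenes. The lower ones included c81579_g1_i1, at -2.10 (SE 0.25, adjusted p = 0.00236 in edgeR), and the *N. benthamiana* LTP3.2 unigene c96262_g5_i1, at -2.56 (SE 0.38, adjusted p = 0.00579). The higher calls numbered 5 without overexpression 3, 4 without mock 2 and 1 without any other library, and the lower calls 10 without mock 3 and 11 in DESeq2.

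Of the PR proteins, 2 of 7 PR1 unigenes were called higher and 2 lower, and 1 of 17 PR10 unigenes was called higher and 1 lower. The called share was 57.1% for PR1 and 11.8% for PR10, against 4.59% of all tested unigenes. With a library left out, the PR1 and PR10 calls in each direction numbered between 0 and 3. Of 13 PR5 and 4 PR4 unigenes, 0 were called by edgeR, with 5 and 1 of them at an unadjusted p under 0.05. DESeq2 called 2 PR5 unigenes lower and 0 PR4 unigenes, and limma-voom called 0 of either family.

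Protease inhibitors are often induced by wounding. The trypsin inhibitor 1 unigene c54821_g1_i1 had a log2 fold change of 4.98 (SE 0.64, adjusted p = 0.00305 in edgeR). It is among the increases the study listed from the same libraries, so its direction is not independent evidence. In its family, 1 of 7 unigenes was called higher and 0 lower, or 14.3% against 4.59% of all tested unigenes. Higher calls numbered 3 in DESeq2 or without overexpression 3, and 2 with library size alone or the replicate block. Lower calls numbered 1 in DESeq2, in limma-voom, with the replicate block or without mock 2, and 2 without overexpression 3. Of 4 type II inhibitors, 2 were called higher, among them c81544_g1_i1 at 2.30 (SE 0.32, adjusted p = 0.00448 in edgeR). Of 6 Kunitz inhibitors, 1 was called higher and 2 lower. The called share was 50% in each of these families, against 4.59% of all tested unigenes. With a library left out, the type II calls numbered between 1 and 3, and the Kunitz calls between 0 and 2 higher and between 1 and 2 lower.

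The jasmonate and ethylene pathways control defensin genes in *Arabidopsis*. Of 27 tested jasmonate unigenes, 1 was called higher and 5 lower (22.2%), and of 17 ethylene unigenes, 3 were called higher and 1 lower (23.5%), against 4.59% of all tested unigenes. Both lists were taken by name, and the 5 lower jasmonate calls include c93598_g1_i3. The unigene c93598_g1_i3, named allene oxide synthase-like by its *N. sylvestris* match but closest in UniProt to a tomato fatty acid hydroperoxide lyase, an enzyme of an oxylipin branch that does not lead to jasmonate, had 33, 31 and 28 counts in overexpression leaves against 325, 382 and 197 in mock leaves. Its log2 fold change was -3.33 (SE 0.26, adjusted p = 0.000480 in edgeR). The ERF1B-like c85657_g1_i1 was called higher at 1.59 (SE 0.25, adjusted p = 0.00702) and the ERF1A-like c67629_g1_i1 lower at -2.20 (SE 0.33, adjusted p = 0.00571). The higher calls of both lists together, 4 in all, numbered 1 without mock 1 or overexpression 1 and 2 without mock 2 or overexpression 2. The lower calls, 6 in all, numbered 3 without mock 1 or overexpression 1 and 2 without mock 3. For jasmonate unigenes alone, higher calls numbered 2 without overexpression 3 and 0 without any other library. Lower jasmonate calls numbered between 1 and 4 with a library left out, and limma-voom called 0 higher and 3 lower.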

How the data were processed

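The 6 libraries were made with a TruSeq stranded mRNA kit. For these libraries the authors used Trimmomatic (trimming), Trinity (de novo assembly), CD-HIT-EST (redundant contigs), Bowtie2 (alignment to unigenes) and RSEM (abundance). The counts they deposited are numbers of read pairs for each unigene without normalization. The deposited expected counts were all whole numbers equal to these counts. The FPKM values, in which the authors corrected for length and library depth, served only to compare levels between unigenes. The deposited TPM values were not used. How reads shared by near-identical unigenes were divided cannot be seen from whole numbers, so values of close relatives are uncertain. Reads were not reprocessed.

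Overexpression and mock counts were fitted together with edgeR 4.0.16 in R 4.3.3, using filterByExpr, TMM factors and the quasi-likelihood F test, and p-values were adjusted by Benjamini-Hochberg over all 37201 tested unigenes. Calls needed an adjusted p below 0.05 with at least a 2-fold change. The scripts were tested on simulated data with 200 changed unigenes. Alternatives were DESeq2 1.42.0, limma-voom (limma 3.58.1), glmTreat, other scalings and filters, 2 other membership rules, the replicate number as a block and each library left out in turn. Where a group held 0 counts, a floor of 3 counts over the group was used, whose leave-one-out values were added after seeing the data, and 95% counting intervals leave out variation between plants. FPKM and CPM errors are standard deviations over 3 libraries.

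The members and lists were chosen with earlier results of these data known. Named unigenes were each defensin passing the filter, those below it with at least 10 counts, the 5 most similar to c84264_g2_i1, and from the other lists at most 3 called unigenes per direction, of which those called in each fit with a library left out were preferred. The lists were taken by Pfam domain (secreted peptide and PR families) or by UniProt or NR name (regulators, organ markers and other organisms).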

Additional observations from a re-analysis of the deposited data

How the results depend on the processing

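No log2 fold change of the 12 tested defensin unigenes changed sign in 179 refits, and 167 of these left the unigene on the same side of the threshold. All counts of called defensins in this section leave out c84264_g2_i1, which was chosen for its rise. Defensins called higher, 0 with all libraries, numbered 1 with no filter on low counts and between 0 and 2 with a library left out. Those called lower, 3 with all libraries, numbered 1 with glmTreat and between 1 and 4 with a library left out. Membership by the Gamma-thionin domain alone gave 2 called lower and 0 called higher. Without a library, secreted peptide and PR families had between 5 and 21 unigenes called higher and between 9 and 18 called lower, and jasmonate and ethylene regulators between 1 and 5 called higher and between 2 and 6 called lower. DESeq2 called 21 of the secreted peptide and PR unigenes lower, against 12 in edgeR. The cause of these changes was not tested. Libraries of the 2 groups share replicate numbers, but same-numbered libraries did not deviate together (correlations of -0.11, -0.13 and -0.09). With the replicate block, 0 defensins were called higher and 2 lower, since c147977_g1_i1 had an adjusted p of 0.0633 in edgeR, and 14 and 12 unigenes of the secreted families and 4 and 6 regulators were called higher and lower. Unigenes with under 10 counts over the 6 libraries, and log2 fold changes of unigenes near 1 CPM, are limited by depth.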

Other observations

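Outside the rule, 9 more unigenes had a defensin named in one of the deposited annotations, most of them without a UniProt match, and 3 of these had a tomato match in the Solyc07g009 run. Several had most of their counts in mock leaves, although 7 of the 9 did not pass the filter and have no test. The fragment c54109_g1_i1, annotated as defensin-like protein 1, had 1, 0 and 1 counts in overexpression leaves against 27, 4 and 23 in mock leaves. The fragment c78801_g3_i1, in the same assembly component as c78801_g4_i1, had 2, 1 and 1 against 28, 2 and 9, and c83264_g1_i4 had 0 counts in each overexpression library against 37, 2 and 11, at least 17.4-fold lower against the floor of 3 counts, or 7.03-fold without mock 1, bounds that cover counting error only. In these 3 unigenes mock 2 was the lowest mock library. The unigene c29831_g1_i1, with a nucleotide match only, had 2, 1 and 1 counts in overexpression leaves against 41, 9 and 12 in mock leaves, and is also among the decreases the study listed, so its direction is not independent evidence.

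Higher counts in overexpression leaves were seen in c96603_g12_i1, whose best protein match is a defensin-like protein 1 of olive and whose tomato match is Solyc07g009260, shared with c84264_g2_i1 and c97191_g2_i1. It had 455, 1087 and 364 counts in overexpression leaves against 303, 123 and 263 in mock leaves, and on the CPM scale the groups did not overlap. Its log2 fold change of 1.38 (SE 0.43) did not pass the threshold (adjusted p = 0.104 in edgeR). The unigene c160793_g1_i1, matched to *Arabidopsis* defensin-like protein 19, had 42, 10 and 10 counts in overexpression leaves against 157, 28 and 104 in mock leaves, with a log2 fold change of -2.26 (SE 0.69, adjusted p = 0.0965 in edgeR).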
